A study of Rattus norvegicus with 8 samples.

Results

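Genes of the lysosome were followed across glia with many and glia with few lipid droplets, the stores of neutral lipid in a cell. They were the cysteine proteases Ctsl and Ctsz, the proton pump genes Atp6v0e1, Atp6ap2 and Atp6v0a1, and the glycoprotein gene Gpnmb. The genes were taken by name from the authors' deposited gene tables, which held all 6 among 1187 listed genes. The glia were grown from hippocampus of rats at P0 in medium with 10% fetal bovine serum, taken at 3 to 5 days in culture, treated with Nile red, a dye of neutral lipid, and sorted by its fluorescence. The LD_pos group (4 samples with high droplet content) was set against the LD_neg group (4 samples with low droplet content), and no genetic change or drug is given for either. The labels do not say whether the 4 samples of a group came from separate animals or cultures, so that the spread behind the authors' p-values may be a technical one.

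Lysosomes are acidic compartments in which proteins, lipids and sugars are broken down, and they take part in the turnover of lipid droplets. Their acidity comes from the vacuolar proton pump, which has a membrane sector (V0) that conducts protons and a cytosolic sector (V1) that hydrolyses ATP. Cathepsins, among them the products of Ctsl and Ctsz, digest proteins in the acid that the pump makes. Gpnmb encodes a transmembrane glycoprotein found on melanosomes and lysosomes and abundant in lipid-loaded macrophages. In mouse and human, lysosomal genes are controlled by TFEB and its relatives, which bind the CLEAR element, and GPNMB is a known target of the relative MITF.

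The promoter letters of 3 of the 6 genes are shown because they hold motifs of the factors just named or of PU.1, a factor of myeloid cells. The sequences are those of RefSeq in the GRCr8 build, read 5′ to 3′ on the gene's strand, with the motif letters in capitals. For Gpnmb (chr4:79340878-79341127, plus strand) and Ctsz (chr3:183653848-183654097, minus strand) they are the 250 bases before the gene start. For Atp6v0e1 (chr10:17007114-17007143, minus strand) they are 30 bases that begin 14 bases into the transcribed part.
Gpnmb: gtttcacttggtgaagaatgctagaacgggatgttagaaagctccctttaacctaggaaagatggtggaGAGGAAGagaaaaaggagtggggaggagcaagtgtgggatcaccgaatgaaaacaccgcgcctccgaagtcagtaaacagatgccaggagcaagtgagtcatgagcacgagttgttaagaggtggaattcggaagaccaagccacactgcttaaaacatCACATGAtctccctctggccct
Ctsz: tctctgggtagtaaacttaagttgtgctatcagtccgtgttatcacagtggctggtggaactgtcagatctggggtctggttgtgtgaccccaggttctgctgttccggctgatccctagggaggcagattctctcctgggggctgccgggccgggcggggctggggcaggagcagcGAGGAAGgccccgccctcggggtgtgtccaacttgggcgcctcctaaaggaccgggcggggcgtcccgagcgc
Atp6v0e1: cgcgcgccggTCACGTGAgcctctgttgac

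The search covered both strands of windows of 300 bases, from 250 before to 50 after the gene start, for 33469 promoters. In Gpnmb, the M-box letters TCATGTG, which MITF binds, lay on the reverse strand 22 bases before the start. These letters occurred in 3.56% of all promoters. The PU.1-like letters GAGGAAG lay 181 bases before the start of Gpnmb and 73 bases before that of Ctsz, and occurred in 12.4% of all promoters. In Atp6v0e1, the letters CACGTG, the core of the CLEAR element, lay 25 bases into the transcribed part. They were flanked so that the longer core TCACGTG, which overlaps them, was present on both strands. CACGTG occurred in 6.42% and TCACGTG in 3.20% of all promoters. None of these 4 motifs was found in the windows of Ctsl, Atp6ap2 and Atp6v0a1. Among 119 promoters of other genes from the lysosomal lists described below, 23 held CACGTG (19.3%), 21 held TCACGTG (17.6%), 13 held TCATGTG (10.9%) and 15 held GAGGAAG (12.6%). Of the 19 such promoters whose gene was listed as called, 1 held CACGTG and TCACGTG, that of Vma21, an assembly factor of the pump, 2 held TCATGTG and 4 held GAGGAAG. A match is a description of letters and was not tested for binding.

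**Figure D1:**
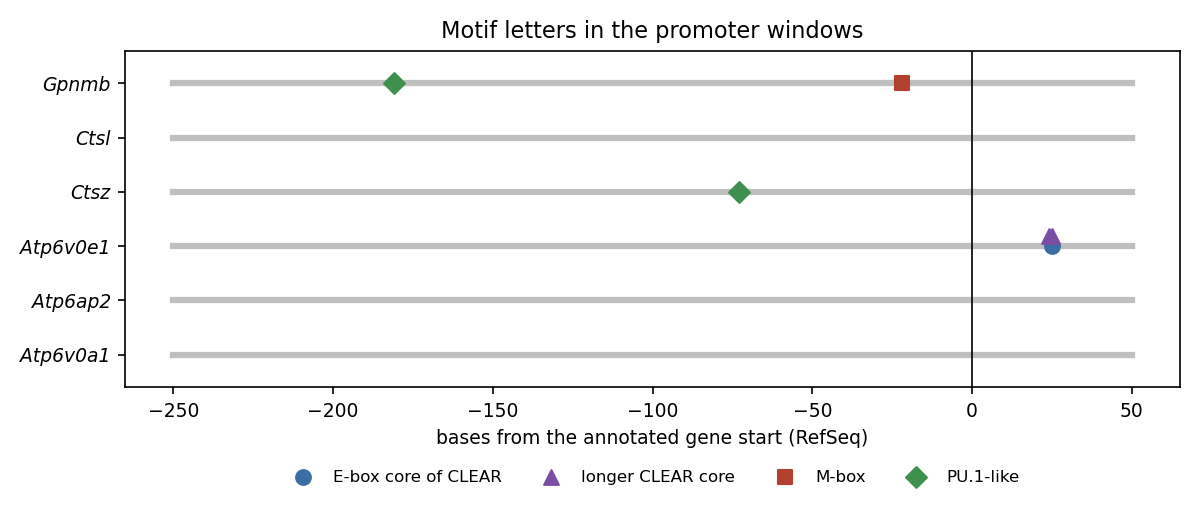
Position of the motif letters in the promoter windows of the 6 genes, in bases from the RefSeq gene start (vertical line), with 1 grey bar per gene window and 1 symbol per motif. Gpnmb and Ctsz hold the PU.1-like letters, Gpnmb holds the M-box and Atp6v0e1 holds the CLEAR core, while the other windows hold none of the 4 motifs.

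Values below are the authors' pooled levels per group in FPKM, that is, fragments scaled by transcript length and by sequencing depth. No level of a single sample was used, so no value carries an SD. A gene was called where the authors' q was below 0.05. The share of the 12981 tested genes that was called was 4.92% for genes higher and 4.22% for genes lower in LD_pos glia, or 9.14% in all. Of the 6 genes, 5 were called higher and 1 was called lower. Each of the 6 came from the tables of called genes, so nothing can be read from their own count against these shares. At q below 0.01, 2 of the 6 were called (Gpnmb and Ctsl), beside 554 of the 1187 listed genes (4.27% of all tested genes). With a log2 change of at least 1 in either direction, 4 of the 6 were left (Gpnmb, Ctsl, Ctsz and Atp6v0e1). This held for 809 of the 1161 listed genes with levels above 0 in both groups, or 6.23% of all tested genes. In such bulk samples, a larger share of cells of a type and more RNA per cell cannot be told apart.

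Gpnmb had the largest change and the highest level in droplet-rich glia among the 6 genes. In the authors' deposited table it stood at 233 FPKM in LD_pos glia, against 33.1 FPKM in LD_neg glia. This is a 7.04-fold difference with a log2 change of 2.81, and the q in the authors' deposited table was 0.00187. That q belongs to the smallest p-value of the authors' Cuffdiff test, 5e-05. It is shared by 348 listed genes, Gpnmb and Ctsl among them, and does not rank them. Of the 633 higher genes with levels above 0 in both groups, 69 had a larger change. Gpnmb (ENSRNOG00000008816) lies on chromosome 4 from 78694447 to 78715683 in the rn6 build. It was the third of the 6 genes by level in LD_neg glia and the first in LD_pos glia. Its share of the summed FPKM of the 6 genes was 46.4% in LD_pos glia and 18.8% in LD_neg glia.

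Both proteases were higher in LD_pos glia, from very different levels. Ctsl encodes cathepsin L, an endopeptidase that cuts within proteins, and has related copies in the rat, such as Ctsll3, with which reads could be shared. In the authors' deposited table it stood at 135 FPKM in LD_pos glia, against 52.9 FPKM in LD_neg glia (log2 change 1.35, q = 0.00187). Ctsz encodes cathepsin Z, also called cathepsin X, which removes residues from the carboxyl end of proteins. In the authors' deposited table it stood at 10.6 FPKM in LD_pos glia, against 1.96 FPKM in LD_neg glia (log2 change 2.44, q = 0.0152). Ctsz was the lowest of the 6 genes in both groups, and 9.27% of the listed genes had a lower level in LD_neg glia. The difference in FPKM was 82.1 for Ctsl and 8.66 for Ctsz, while the fold was 2.55 for Ctsl and 5.41 for Ctsz. The ratio of Ctsl to Ctsz was accordingly 12.7 in LD_pos glia and 26.9 in LD_neg glia. A ratio of genes within a group does not depend on how the groups were scaled. Ctsl (ENSRNOG00000018566) lies on chromosome 17 from 1872848 to 1879279 and Ctsz (ENSRNOG00000050697) on chromosome 3 from 172527107 to 172537877, both in rn6.

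The widely expressed pump genes had smaller changes than the proteases. Atp6v0e1 encodes a small subunit of the V0 sector. In the authors' deposited table it stood at 57.5 FPKM in LD_pos glia, against 27.3 FPKM in LD_neg glia (log2 change 1.08, q = 0.0133). Its log2 change was 0.30 relative to the median change of all listed genes and 0.09 relative to their summed level. Atp6ap2 encodes an accessory subunit of the pump that is also known as the prorenin receptor. In the authors' deposited table it stood at 45.4 FPKM in LD_pos glia, against 26.7 FPKM in LD_neg glia (log2 change 0.77, q = 0.0365), with a direction that flipped when changes were taken relative to those of all listed genes (log2 change -0.0079 relative to their median and -0.22 relative to their summed level). The ratio of Atp6v0e1 to Atp6ap2 was 1.27 in LD_pos glia and 1.02 in LD_neg glia. Of the 633 higher genes, 339 had a larger change than Atp6v0e1 and 582 had a larger change than Atp6ap2. Atp6v0e1 (ENSRNOG00000003269) lies on chromosome 10 from 16769666 to 16792909 and Atp6ap2 (ENSRNOG00000003858) on chromosome X from 11136939 to 11164915 in rn6.

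Atp6v0a1 was the 1 gene of the 6 that was lower in LD_pos glia. It encodes the a1 form of the large proton-conducting V0 subunit, which is abundant in neurons and on synaptic vesicles. In the authors' deposited table it stood at 21.1 FPKM in LD_pos glia, against 34.5 FPKM in LD_neg glia (log2 change -0.71, q = 0.0419). Its q was the closest of the 6 to the threshold of 0.05, and 1093 of the 1187 listed genes had a smaller q. The ratio of Atp6v0a1 to Atp6v0e1 was 0.367 in LD_pos glia and 1.27 in LD_neg glia. Its ratio to Atp6ap2 was 0.464 in LD_pos glia and 1.29 in LD_neg glia. Atp6v0a1 was thus above both widely expressed pump genes in LD_neg glia and below both in LD_pos glia. The opposite direction of these genes was not tested, since no levels of single samples were used. Atp6v0a1 (ENSRNOG00000036814) lies on chromosome 10 from 88914276 to 88967748 in rn6, far from Atp6v0e1 on the same chromosome.

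By level in LD_pos glia the order was Gpnmb, Ctsl, Atp6v0e1, Atp6ap2, Atp6v0a1 and Ctsz. In LD_neg glia it was Ctsl, Atp6v0a1, Gpnmb, Atp6v0e1, Atp6ap2 and Ctsz. Gpnmb moved up and Atp6v0a1 moved down in this order, whereas Ctsz was last in both groups. Whether neighbours in the order differ beyond the spread of samples could not be tested. The summed FPKM of the 6 genes was 502 in LD_pos glia and 176 in LD_neg glia. The locus of none of the 6 overlapped that of another listed gene.

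**Figure D2:**
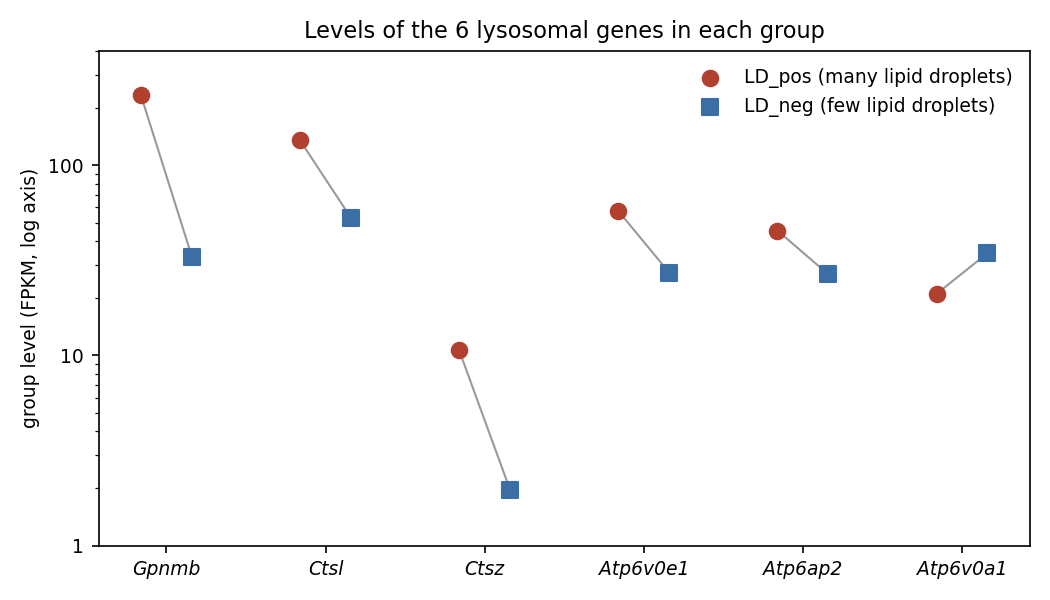
Level of each of the 6 genes in LD_pos glia (circles) and LD_neg glia (squares) in FPKM on a log axis, 1 pooled value per group with no error bar. The circle is above the square for 5 genes and below it for Atp6v0a1 (21.1 against 34.5 FPKM); for Atp6ap2 the direction flips relative to the change of all listed genes.

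The other genes of the lysosome were taken from lists of symbols for proteases, the pump, acid hydrolases, membrane proteins, transcription factors, the mTORC1 scaffold and enzyme sorting. Together these lists held 151 symbols. Of these, 27 were called higher (17.9%) and 2 lower (1.32%) in the authors' deposited table, beside 4.92% and 4.22% of all tested genes. The shares of lists here and below are over all their symbols, tested or not, and those of all genes over the 12981 tested. Without the 5 of the 6 genes that are on these lists, 23 of 146 symbols were higher and 1 was lower. The median log2 change of the called symbols in both directions was 1.12, beside 0.77 for all listed genes. The 0.77 mixes higher and lower genes, and the median of the higher genes alone was 1.13. No larger change of lysosomal genes is read from these medians. Of the 26 higher symbols with levels above 0 in both groups, 23 were still higher relative to the median change of all listed genes and 19 relative to their summed level. Of the 633 higher genes with levels above 0 in both groups, 580 (91.6%) and 415 (65.6%) were still higher under these 2 scalings. Nothing about the lysosome is read from these counts.

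Proteases had the highest share of called symbols among these lists. Of 19 symbols, 9 were called higher and 0 lower in the authors' deposited table, with log2 changes from 0.81 to 3.80. Of the 9, 6 were also higher relative to the summed level of all listed genes, beside 65.6% of the 633 higher genes. Without Ctsl and Ctsz, 7 of 17 were higher, with a median log2 change of 1.01. Ctss, the cathepsin of antigen-presenting cells, stood at 31.7 FPKM in LD_pos glia, against 2.27 FPKM in LD_neg glia, in the authors' deposited table (log2 change 3.80). Lgmn, the asparaginyl protease that matures cathepsins, stood at 29.95 FPKM in LD_pos glia, against 4.39 FPKM in LD_neg glia, in the authors' deposited table (log2 change 2.77). Ctsh, an aminopeptidase, stood at 21.9 FPKM in LD_pos glia, against 8.11 FPKM in LD_neg glia, in the authors' deposited table (log2 change 1.43). Ctsb, cathepsin B, is named here after its values were seen, as the protease with the highest level: 371 FPKM in LD_pos glia, against 211 FPKM in LD_neg glia, in the authors' deposited table. Its log2 change of 0.81 was the smallest among the called proteases, and it was 1 of the 3 called proteases that were lower relative to that sum. The change of Ctsz was the third and that of Ctsl the fifth of the 9 proteases by size.

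Of 8 symbols for inhibitors of cathepsins, 2 were called higher and 0 lower, beside 4.92% and 4.22% of all tested genes. Only Cstb stayed higher relative to both the median change and the summed level of all listed genes. Cstb, the inhibitor inside cells, stood at 98.8 FPKM in LD_pos glia, against 42.1 FPKM in LD_neg glia, in the authors' deposited table (log2 change 1.23). Cst3, the secreted inhibitor cystatin C, stood at 346 FPKM in LD_pos glia, against 210.1 FPKM in LD_neg glia, in the authors' deposited table (log2 change 0.72), and was lower relative to the median change of all listed genes.

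The pump was read through symbols of its 2 sectors and of its assembly. Of 12 symbols of the V0 sector and its accessory proteins, 2 were called higher and 1 lower, and these are the 3 pump genes above. Of 13 symbols of the V1 sector, 0 were called by the authors' Cuffdiff test, and the p-values of genes outside the called ones were not analysed here. A gene outside the called ones either missed the threshold or was not tested, so its level is not known here to be equal between the groups. Of 3 symbols for forms of the subunits that are abundant in neurons or brain (Atp6v0a1, Atp6v0e2 and Atp6v1g2), 1 was called, Atp6v0a1. Taken over both sectors, 8% of the 25 symbols were called higher and 4% lower, beside 4.92% and 4.22% of all tested genes, and nothing about the pump is read from these 3 genes. Of 10 symbols for assembly and regulation of the pump, 2 were called higher and 1 lower. Vma21, an assembly factor of the V0 sector, stood at 10.1 FPKM in LD_pos glia, against 4.79 FPKM in LD_neg glia, in the authors' deposited table (log2 change 1.07). Oxr1, a protein of the oxidation response that is related to pump regulators, stood at 33.3 FPKM in LD_pos glia, against 20.1 FPKM in LD_neg glia, in the authors' deposited table (log2 change 0.72), and was lower relative to the median change of all listed genes. Dmxl2, a rabconnectin of synaptic vesicles that binds the pump, stood at 5.57 FPKM in LD_pos glia, against 9.30 FPKM in LD_neg glia, in the authors' deposited table (log2 change -0.74). Dmxl2 and Atp6v0a1 were the 2 called lower symbols of the lysosomal lists.

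**Figure D3:**
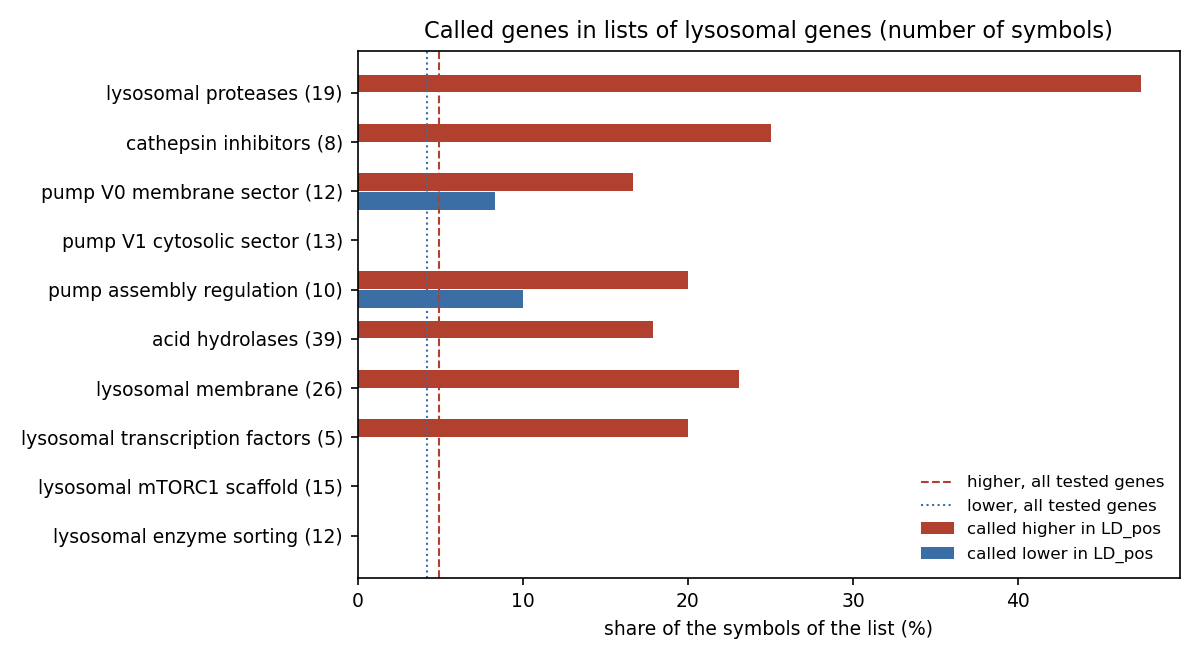
Share of the symbols of each lysosomal list that was called higher (red) or lower (blue) in LD_pos glia, in percent, with the number of symbols in brackets and dashed and dotted lines for all tested genes (4.92% higher, 4.22% lower). The bars are shares of all symbols, tested or not, and the lines are shares of tested genes only. The protease list reaches 47.4% higher (9 of 19 symbols, 6 of them also higher relative to the summed level of all listed genes), and the lower calls are in the V0 sector and pump assembly lists.

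The list of acid hydrolases and related proteins had 7 of 39 symbols called higher and 0 lower, beside 4.92% and 4.22% of all tested genes. Of the 7, 6 were higher relative to the summed level of all listed genes, beside 65.6% of the 633 higher genes. Pld4, a nuclease of phagocytes, stood at 10.7 FPKM in LD_pos glia, against 0.880 FPKM in LD_neg glia, in the authors' deposited table (log2 change 3.60). Manba, a mannosidase, had a log2 change of 2.45 and Arsb, a sulfatase, one of 1.54 in the authors' deposited table. Membrane and lumen proteins of the lysosome had 6 of 26 symbols called, 6 higher and 0 lower (of the 5 with levels above 0 in both groups, 4 were higher relative to that sum). Cd68, a macrophage protein of lysosomes, stood at 20.1 FPKM in LD_pos glia, against 3.67 FPKM in LD_neg glia, in the authors' deposited table (log2 change 2.45). Slc17a5, the sialic acid exporter, Laptm4a and Npc2, which carries cholesterol in the lumen, had log2 changes from 1.07 to 1.17 in the authors' deposited table. Lamp3 is listed at 0 in LD_neg glia and at 3.27 FPKM in LD_pos glia in the authors' deposited table, and no fold is given for it.

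Among 5 transcription factors of lysosomal genes, 1 was called, Mitf, the factor that binds the M-box. It stood at 9.07 FPKM in LD_pos glia, against 3.89 FPKM in LD_neg glia, in the authors' deposited table (log2 change 1.22, q = 0.0158). Tfeb, Tfe3, Tfec and Zkscan3 were outside the called genes, as were all 15 symbols of the mTORC1 scaffold and all 12 of enzyme sorting. Among 7 symbols for the relative Pmel and reported binding partners of Gpnmb, 1 was called, the integrin chain gene Itgb1, at 373 FPKM in LD_pos glia, against 214 FPKM in LD_neg glia, in the authors' deposited table (log2 change 0.80), and it was lower relative to the summed level of all listed genes. Of 6 symbols for renin system and Wnt partners of Atp6ap2, 0 were called by the authors' Cuffdiff test. Of all tested genes, 9.14% were called in either direction, and nothing is read from the counts of these short lists.

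Genes of lipid-laden phagocytes form a list to which Gpnmb, Ctsl and Ctsz themselves belong. Of the other 19 symbols, 12 were called higher and 0 lower in the authors' deposited table, beside 4.92% and 4.22% of all tested genes. The 12 had a median log2 change of 2.13. Of the 15 called genes of the full list, 12 were higher relative to the summed level of all listed genes, beside 65.6% of the 633 higher genes. The 19 symbols share 3 with the myeloid list below, Tyrobp and Lyz2 among them, and 3 with the lysosomal lists. Spp1, osteopontin, stood at 131 FPKM in LD_pos glia, against 7.51 FPKM in LD_neg glia, in the authors' deposited table (log2 change 4.12). Igf1, a growth factor of activated microglia, stood at 95.8 FPKM in LD_pos glia, against 12.5 FPKM in LD_neg glia, in the authors' deposited table (log2 change 2.94). Tyrobp, a signalling chain of myeloid receptors, and Lyz2, lysozyme, had log2 changes of 3.52 and 3.47 in the authors' deposited table. The change of Gpnmb (2.81) was below those of these 4 genes, and those of Ctsz (2.44) and Ctsl (1.35) were lower still.

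Markers of other cell types were called in the same comparison, in which 4.92% of all tested genes were called higher and 4.22% lower. Of 31 myeloid symbols, 15 were called higher and 0 lower in the authors' deposited table, with log2 changes from 1.96 to 4.41 and a median of 3.37. Their summed level was 587 FPKM in LD_pos glia, against 55.6 FPKM in LD_neg glia, and none of the 15 was at 0 in either group. The list shares 4 symbols with the lysosomal lists, of which 3 were called, Ctss and Cd68 among them, and the 12 other called markers had a median log2 change of 3.42. Without the shared symbols, 24 of 147 lysosomal symbols were called higher. The changes of Ctsl, Atp6v0e1 and Atp6ap2 lay below the smallest of the 15 myeloid changes, while those of Gpnmb and Ctsz lay within their range. Fibroblast and mural markers had 5 of 18 symbols called higher (summed level 220.2 FPKM in LD_pos glia, against 71.5 FPKM in LD_neg glia). Their log2 changes ran from 1.46 to 3.29, a range that also held the changes of Gpnmb and Ctsz. Endothelial markers had 3 of 12 called higher (summed level 41.0 FPKM in LD_pos glia, against 12.96 FPKM in LD_neg glia). Astrocyte markers had 3 of 21 called higher (log2 changes from 0.78 to 0.95), of which 0 were higher relative to the summed level of all listed genes. The levels of the other 18 astrocyte markers, Gfap and Aqp4 among them, were not analysed here, so that astrocytes could be followed only through those 3. Ependymal and choroid plexus markers had 1 of 10 symbols called higher and 1 called lower.

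The called neuron and oligodendrocyte markers were lower, as was Atp6v0a1. Of 23 neuron symbols, 13 were called lower and 0 higher in the authors' deposited table, beside 4.22% and 4.92% of all tested genes. The log2 changes of the 13 ran from -5.25 to -0.84. Their summed level was 191 FPKM in LD_pos glia, against 721 FPKM in LD_neg glia, and none was at 0 in either group. Of 14 oligodendrocyte symbols, 2 were called lower (summed level 4.39 FPKM in LD_pos glia, against 25.9 FPKM in LD_neg glia). The change of Atp6v0a1 (-0.71) was smaller in size than that of each of these called markers. The part of these cell types in the levels of the 6 genes was not tested.

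**Figure D4:**
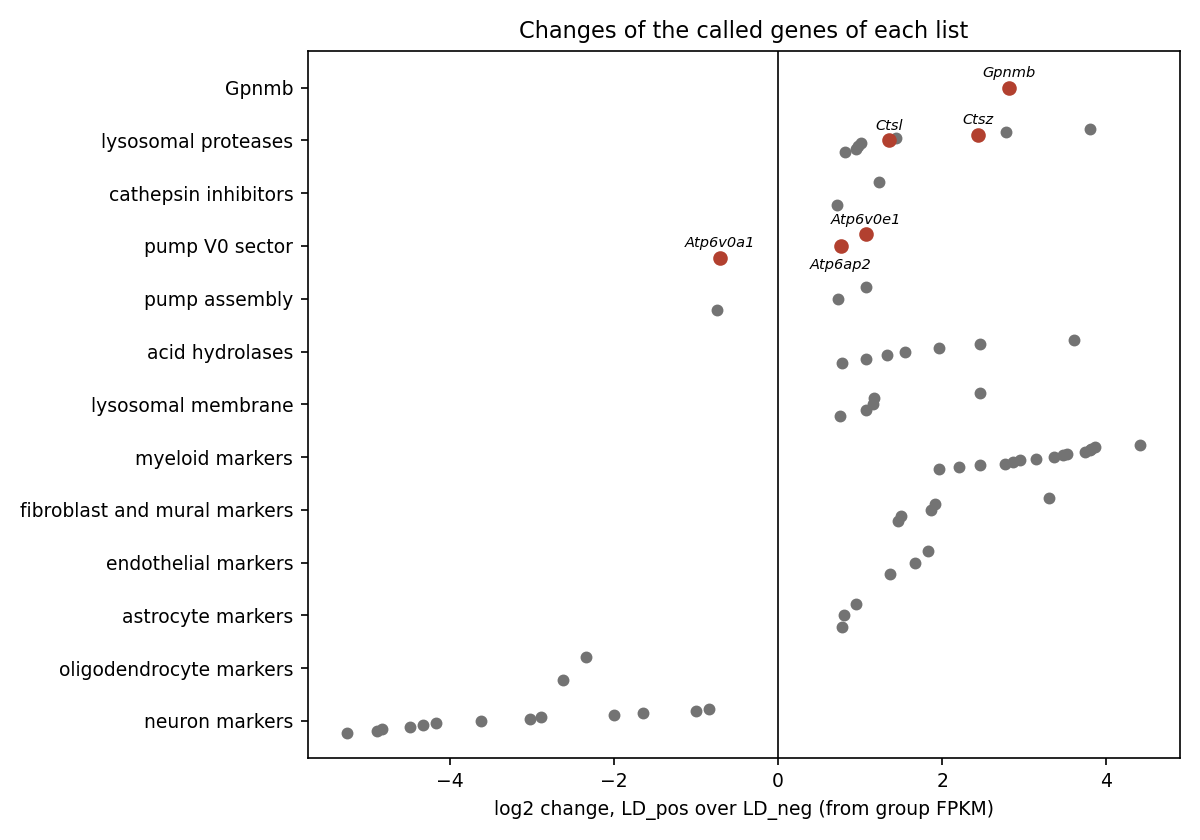
Log2 change of the called genes of each list, LD_pos over LD_neg, from the group FPKM (1 point per gene, red for the 6 genes described; points are spread vertically for legibility). Gpnmb and Ctsz lie within the ranges of the myeloid markers (1.96 to 4.41) and of the fibroblast and mural markers (1.46 to 3.29). The pump genes lie near -0.71, 0.77 and 1.08, and the neuron markers lie from -5.25 to -0.84. The direction of Atp6ap2 flips relative to the change of all listed genes.

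The called genes most like each of the 6 were sought by the distance between their log2 levels over the 2 groups. Genes with provisional names or a level of 0 in a group were left out of this search. For Atp6v0e1 they were Filip1l, Kpna2 and Smc6, at distances from 0.04 to 0.08. For Atp6ap2 they were Gadd45a, Nipa2 and Commd8 (0.07 to 0.11) and for Atp6v0a1 they were Bcl9l, Msi1 and Ralgapb (0.06 to 0.10). For Ctsz they were Apobec1, Card6 and Ebf1 (0.08 to 0.20), and for Ctsl they were Acyp1, Anxa1 and Mbnl1 (0.16 to 0.19). For Gpnmb the nearest were farther away, Tmem176b, Rpl39 and Col8a1, at distances from 0.85 to 0.92. With 2 values per gene, a small distance says only that level and change are alike.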

How the data were processed

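RNA was sequenced from 4 LD_pos and 4 LD_neg samples, grouped by title. Bowtie2, Cuffdiff and the build rn6 are named, without versions, per the submitters' processing notes. For the annotation and the strand setting, nothing is given in the sources used here. The authors deposited 1 FPKM per gene and group (the headers name no unit; FPKM is what Cuffdiff reports) for called genes only. Beside it the authors deposited the log2 fold change. Per the file headers, the authors also give a P value and a Q value of their test for each gene, and a Bonferroni-corrected p-value of the PANTHER test for each gene ontology term. The tables hold 0 columns of single samples, so the spread between replicates and the depth per sample are unknown, and counting intervals cannot be given. The planned tests on values per sample were therefore not run, and the calls are the authors' own (q below 0.05).

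Log2 changes were recomputed from the levels as LD_pos over LD_neg. The largest difference to a deposited log2 value was 1.15e-05. In the deposited table of lower genes, 20 log2 cells hold a spreadsheet error text, at the 20 genes listed at 0 in LD_pos glia. The number of genes tested was recovered from p, q and rank as 12981, a step tested on simulated data. Loci are those deposited, with starts raised by 1. Motif letters were searched on both strands of RefSeq promoter windows (GRCr8, 250 bases before to 50 after the gene start), which held all 6 genes.

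The genes described and the lists were chosen with earlier results of these data known. Genes named are the 6 members, up to 4 called genes per lysosomal or partner list and up to 3 per marker list by absolute log2 change, and the 3 called genes nearest each member in log2 levels; others are marked. A gene that the rule takes is not reported here. Alternatives were a stricter q, a minimum fold, minimum levels, pseudocounts, 2 scalings, leaving out repeated names and, added after seeing the data, leaving out symbols shared by the lysosomal and myeloid lists. Python 3.11.15, pandas 2.3.3, numpy 2.4.6 and matplotlib 3.10.9 were used.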

Additional observations from a re-analysis of the deposited data

How the results depend on the processing

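The direction of Gpnmb, Ctsl, Ctsz, Atp6v0e1 and Atp6v0a1 held under the pseudocounts, both scalings and the deposited log2 values, and that of Atp6ap2 did not. At q below 0.01, 2 of the 6 genes were called (Gpnmb and Ctsl), beside 554 of the 1187 listed genes they came from. Of all tested genes, 4.27% were called at q below 0.01. At that threshold 10 lysosomal symbols were higher and 0 lower, and 0 pump subunits were called. The p-values of pump subunits outside the called genes are not known here. With a log2 change of at least 1 in either direction, 19 lysosomal symbols were higher and 0 lower, and 1 pump subunit was called. Of all tested genes, 6.23% were called under this rule in either direction. Relative to the median change of all listed genes (0.77), the log2 change was 2.04 for Gpnmb, 0.58 for Ctsl, 1.66 for Ctsz, 0.30 for Atp6v0e1, -0.0079 for Atp6ap2 and -1.49 for Atp6v0a1. With levels divided by the sum of all listed levels (a shift of 0.99), it was 1.83 for Gpnmb, 0.37 for Ctsl, 1.45 for Ctsz, 0.09 for Atp6v0e1, -0.22 for Atp6ap2 and -1.70 for Atp6v0a1. Both scalings rest on called genes only, and the cause of the flip of Atp6ap2 was not tested. A pseudocount of 1 gave 2.78 for Gpnmb, 1.34 for Ctsl, 1.97 for Ctsz, 1.05 for Atp6v0e1, 0.74 for Atp6ap2 and -0.69 for Atp6v0a1. A pseudocount of 0.1 gave 2.38 for Ctsz, 1.07 for Atp6v0e1 and 0.76 for Atp6ap2. Minimum levels of 1 and 5 FPKM, repeated names left out and shared symbols left out moved no count by over 1.5 times. No replicate could be left out, because the tables hold no values of single samples. No paired analysis was possible because the columns carry no replicate. The depth is unknown and only the authors' p and q carry the precision.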

Other observations

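The authors' deposited tables of gene ontology processes name 229 terms for the genes higher and 104 terms for the genes lower in LD_pos glia. Of these, 0 and 0 contained the letters lysosom, vacuol, proteoly, proton, phagocyt, endocyt or autophag.

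Along the rn6 chromosomes, 2 listed genes lay within 500 kb of Gpnmb, and both were higher in LD_pos glia in the authors' deposited table. The nearer was Tmem176a, at 232.0 kb. Tmem176b, of the same family, was the first of the called genes by distance to Gpnmb in log2 levels, but that distance was 0.85. Its log2 change was 1.68, against 2.81 for Gpnmb. Shared control of these genes was not tested. Ctsl and Ctsz each had 1 listed gene within 500 kb, also higher, and the 3 pump genes had 0. Tmem176a was named after its values were seen.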
